A study of Mus musculus with 12 samples.

Results

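The elastic fibre and microfibril genes are 10 genes taken as a fixed list of names from the 54352 gene symbols of the count table: *Eln*, *Fbn1*, *Fbn2*, *Fbln2*, *Fbln5*, *Efemp1*, *Efemp2*, *Mfap2*, *Mfap4* and *Mfap5*. Each of the 10 has a row in the table, and each passed the filter on low counts in every comparison. They were followed in primary fibroblasts of the adventitia, the outer coat of an artery, cultured from the ascending and the descending aorta of wild-type C57BL/6 mice. The labels give an age of 14 weeks, and the text of the study's methods gives a different one. Every culture was passaged and brought close to confluence before treatment. The 4 groups, with 3 libraries each, were ascending control, ascending TGFβ, descending control and descending TGFβ, where control cells received the solute and treated cells received mouse TGFβ at 10 ng/mL for 48 h. The cells were neither sorted nor cloned, and the sources used here do not say whether cultures that share a replicate number share an animal, so p-values measure only the spread between these samples, which may be technical.

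Elastic fibres give the aortic wall its recoil. Their core is crosslinked elastin, laid down on a scaffold of microfibrils whose backbone is fibrillin. Fibulins bind tropoelastin, the soluble precursor, and help to bring it together with lysyl oxidases and microfibrils, and small microfibril-associated glycoproteins decorate the fibrillin backbone. In the vessel wall most elastin is made early in life, and TGFβ, which microfibrils hold in a latent form, is known to raise elastin production by mesenchymal cells.

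The counts summed to 16250126 to 23892943 per library. Levels are given as normalized CPM, a count scaled to the library total with edgeR's TMM normalization. For differences the two-sided quasi-likelihood test of edgeR was used, with Benjamini-Hochberg adjustment over all genes tested. A gene was called higher or lower at an adjusted p under 0.05. One library stands apart. In the descending control replicate 3 counts were found on 13031 genes and 11.02% of them were mitochondrial, where the other 11 libraries had 19337 to 20931 genes and 0.703 to 1.03%. Of its counts 0.848% fell on the 10 genes, compared with 1.45 to 1.91% elsewhere. Tests printed for a member between control sites or for TGFβ in descending fibroblasts are therefore given with and without it. The 9 fibroblast markers were over the floor of 3 counts in every library, and their levels moved with site and treatment, as described with the other cell type markers. As a check of the treatment labels, *Skil*, a direct target of TGFβ signalling, was higher with TGFβ by 1.69 (log2, SE 0.048, adjusted p = 1.73e-14) in ascending and 1.56 (SE 0.26, adjusted p = 0.0208, or 1.90 without that library) in descending fibroblasts. *Smad7* was higher in ascending fibroblasts (0.52, adjusted p = 3.15e-08), and in descending ones its change was 0.89 (adjusted p = 0.162) with that library and 0.61 (adjusted p = 1.58e-10) without it. *Tgfbi*, also part of this check, went the other way from *Skil* and *Smad7*. It was lower in ascending (log2 -1.62, adjusted p = 3.92e-07) and in descending fibroblasts (-2.56, adjusted p = 0.00209, or -2.70 without that library).

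The 10 genes are protein-coding in GENCODE vM21 (GRCm38). *Eln* is at chr5:134702593-134747323 on the minus strand. The fibrillin gene *Fbn1* is at chr2:125300594-125507993 (minus). The fibulins are *Fbln2* at chr6:91212455-91272540 (plus), *Fbln5* at chr12:101746565-101819055 (minus), *Efemp1* (fibulin-3) at chr11:28853204-28926743 (plus) and *Efemp2* (fibulin-4) at chr19:5473954-5482517 (plus). The microfibril-associated genes are *Mfap2* at chr4:141010418-141015984, *Mfap4* at chr11:61485431-61488900 and *Mfap5* at chr6:122505845-122529290, each on the plus strand. The strand setting of the counting is not given in the sources used here, and 5 of the 10 genes share exonic bases with a gene on the opposite strand: *Fbn1* over 20.1% of its exonic bases (with *Gm9913*), *Mfap4* over 4.63% (*Mapk7*), *Efemp2* over 4.57% (*Mus81*), *Eln* over 3.30% (*Gm30003*) and *Fbn2* over 0.976% (*Gm26507*). Reads from such stretches cannot be told apart without strand.

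*Efemp1* and *Mfap2* were lower with TGFβ in both sites, and the 250 bases before the annotated start of each are shown for that reason, from RefSeq promoter windows on GRCm38.p6 (plus strand, at chr11:28852955-28853204 and chr4:141010174-141010423). Capitals mark matches to any of 6 motifs.
Efemp1: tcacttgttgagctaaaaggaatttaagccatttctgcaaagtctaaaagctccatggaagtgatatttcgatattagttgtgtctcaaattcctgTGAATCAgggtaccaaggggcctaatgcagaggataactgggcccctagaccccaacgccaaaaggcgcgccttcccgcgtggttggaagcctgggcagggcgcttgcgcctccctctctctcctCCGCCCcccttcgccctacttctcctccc
Mfap2: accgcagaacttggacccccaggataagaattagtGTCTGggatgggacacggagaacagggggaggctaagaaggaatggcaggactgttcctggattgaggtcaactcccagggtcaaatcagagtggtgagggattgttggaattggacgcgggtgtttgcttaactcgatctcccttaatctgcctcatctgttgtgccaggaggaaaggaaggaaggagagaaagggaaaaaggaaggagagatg
The motifs were GTCTG, the short SMAD-binding element, GTCTAGAC, its palindromic form, TGANTCA, the AP-1 site, the TGFβ inhibitory element, TATAAA and the GC box GGGCGG, each searched on both strands. Windows were found for 6 of the 10 genes (*Fbn1*, *Fbln2*, *Fbln5*, *Efemp1*, *Efemp2* and *Mfap2*). In the *Efemp1* window the AP-1 letters stand 154 to 148 bases before the start and a GC box on the other strand 29 to 24 bases before it. In the *Mfap2* window GTCTG stands 215 to 211 bases before the start. A second annotated start of *Mfap2* had the letters of the TGFβ inhibitory element at 130 to 121 bases before it and GC boxes at 51 to 46 and 7 to 2. Of 32817 windows of the same length, 42.2% hold GTCTG, 0.168% GTCTAGAC, 6.75% TGANTCA, 4.15% the TGFβ inhibitory element, 12.4% TATAAA and 32.7% GGGCGG. A match describes the letters only.

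*Eln*, which encodes elastin, had the greatest estimated difference between control sites among the 10 genes, close to that of *Fbn2* (log2 -3.54, SE 0.55). It also had the greatest estimated change with TGFβ in descending fibroblasts, close to that of *Mfap4* without the descending control replicate 3 (3.75 and 3.59). In descending fibroblasts the normalized CPM of *Eln* was 135, 118 and 101 without TGFβ and 1722, 1642 and 1727 with it. In ascending fibroblasts it was 1549.7, 1595 and 1468 without and 2874, 2465 and 2552 with TGFβ. The 4 groups do not overlap, and descending TGFβ and ascending control, with nearest values of 1642 and 1595, lie closest to each other. Without TGFβ, *Eln* was 13.1-fold higher in ascending fibroblasts (log2 3.71, SE 0.15, adjusted p = 0.00139, or 0.0720 with the replicate number as a block). It was 12.3-fold higher without the descending control replicate 3 (log2 3.62, adjusted p = 8.82e-14). TGFβ raised it 14.3-fold in descending fibroblasts (log2 3.84, SE 0.15, adjusted p = 0.000489, or 3.75 with adjusted p = 4.75e-28 without that library). In ascending fibroblasts the rise was 1.70-fold (log2 0.77, SE 0.045, adjusted p = 2.42e-10). After treatment the difference between sites was 1.55-fold, still with ascending higher (log2 0.63, SE 0.043, adjusted p = 5.12e-13).

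**Figure D1:**
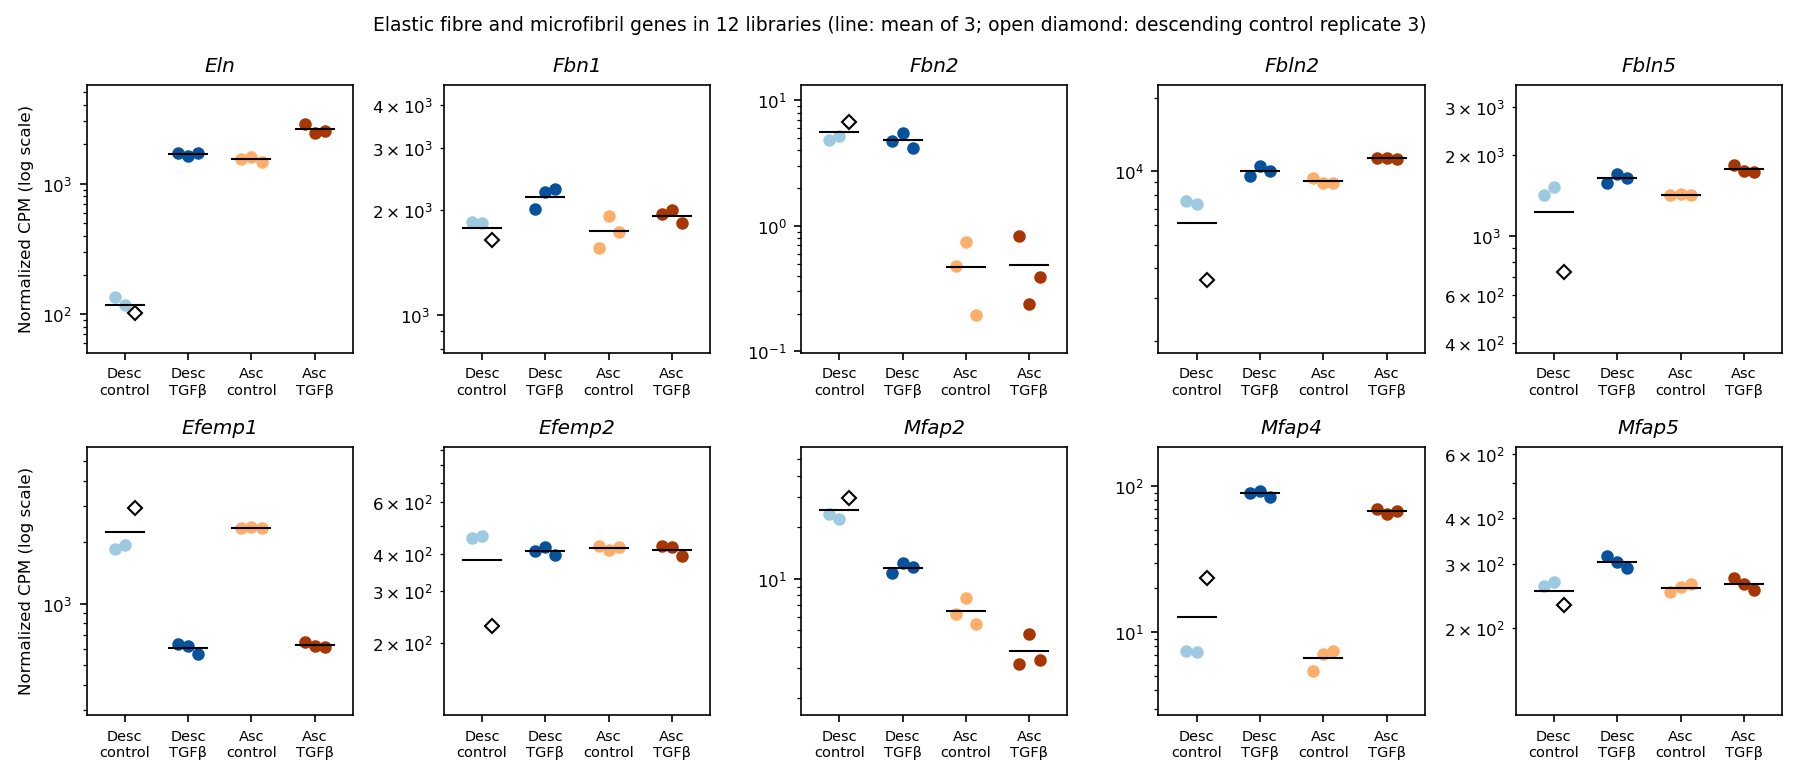
Normalized CPM (log axis) of the 10 genes in the 12 libraries, grouped by site (Desc, descending; Asc, ascending) and treatment. Each point is a library, the line is the mean of 3, and the open diamond is the descending control replicate 3. *Eln* in descending controls, at 101 to 135, lies below every other library, which range from 1468 to 2874, and *Fbn2* and *Mfap2* are higher in descending than in ascending fibroblasts with either treatment.

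Whether the response to TGFβ depends on the site was tested with the interaction of site and treatment over the 12 libraries, where a negative value means a more positive change in descending fibroblasts. *Eln* passed with -3.07 (SE 0.15, 95% interval -3.41 to -2.74, adjusted p = 1.42e-05), a rise 8.40-fold larger in descending than in ascending fibroblasts. It ranked 1 by adjusted p among 14637 genes, of which 0.806% were called (0.321% positive and 0.485% negative). Without the descending control replicate 3 the value was -2.98 (adjusted p = 1.91e-18), and leaving out each of the 12 libraries in turn gave -3.17 to -2.98. The other 9 genes did not pass with the 12 libraries. Without the descending control replicate 3, where 13.5% of genes were called (6.07% positive and 7.4% negative), *Efemp1* (-0.27, SE 0.054, adjusted p = 0.000909) and *Mfap5* (-0.17, SE 0.058, adjusted p = 0.0481) passed too. For *Efemp1* the value with the 12 libraries was -0.027, and for *Mfap5* it was -0.23 (adjusted p = 0.509).

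The 3 genes whose pattern over the 12 libraries was most like that of *Eln*, by the root mean square difference of centred log2 CPM, were *Tgm2*, a transglutaminase that crosslinks matrix proteins (0.57), *Pdgfb*, a platelet-derived growth factor chain (0.58), and *Pard6b*, a cell polarity protein (0.58), out of 14636 genes. *Tgm2* had a mean normalized CPM of 12.1 in descending controls, which went to 140.2 with TGFβ, and of 66.3 in ascending controls, which went to 130.4. For *Pdgfb* the means went from 0.0534 to 1.59 in descending cultures and from 1.90 to 5.74 in ascending ones, and for *Pard6b* from 0.0274 to 0.695 and from 0.814 to 1.21. The descending control means of both are under the floor of 3 counts per library, which lay at 0.117 to 0.207 normalized CPM. None of the 10 genes was among the 3 nearest of another.

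The fibrillins form the microfibril backbone, and their levels lay far apart. *Fbn1*, the main fibrillin of the adult wall, had 1556, 1922 and 1733 normalized CPM in ascending fibroblasts without TGFβ and 1947, 2001 and 1828 with it. The descending cultures had 1842, 1828 and 1635 without and 2008, 2254 and 2288 with TGFβ. In ascending fibroblasts the groups overlap, and the change with TGFβ was 1.10-fold (log2 0.14, SE 0.054, adjusted p = 0.0327, or 0.393 with the 12 libraries in one fit). That call was lost without ascending control replicate 1 (0.069, adjusted p = 0.180) and on leaving out ascending control replicate 3 or ascending TGFβ replicate 1 or 2. In descending fibroblasts the change was 0.30 (SE 0.11, adjusted p = 0.173), and 0.25 (SE 0.051, adjusted p = 0.000114) without the descending control replicate 3. *Fbn1* did not pass between the sites in control cells (-0.021, adjusted p = 0.937, or -0.066 with adjusted p = 0.461 without that library). With TGFβ it was 1.13-fold lower in ascending fibroblasts (log2 -0.18, SE 0.042, adjusted p = 0.00111, or 0.441 with the 12 libraries in one fit).

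*Fbn2*, a fibrillin known mainly from development, was low in every library and higher in descending fibroblasts. Descending cultures had 125, 121 and 97 counts without TGFβ and 93, 102 and 88 with it. Ascending cultures had 11, 15 and 4 counts without and 16, 5 and 8 with TGFβ. Every descending library was above every ascending one. In control cells ascending fibroblasts were 11.7-fold lower (log2 -3.54, SE 0.55, adjusted p = 0.0331, or -3.39 with adjusted p = 2.57e-06 without the descending control replicate 3), and with TGFβ 9.91-fold lower (log2 -3.31, SE 0.29, adjusted p = 2.10e-10). With counts this small the 95% interval of the change with TGFβ in ascending fibroblasts ran from -1.12 to 1.16 on the log2 scale, around 0.017. In descending fibroblasts it was -0.23 (95% interval -0.83 to 0.38), or -0.072 without the descending control replicate 3 (adjusted p = 0.757).

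Of the fibulins, *Fbln2* and *Fbln5* were higher with TGFβ in ascending fibroblasts, and *Efemp1* was lower in both sites. *Efemp1*, fibulin-3, is a fibulin of fascia and connective tissue. The 3 ascending controls had 2355, 2377 and 2343 normalized CPM and the treated ascending cultures 646, 623 and 617. In descending fibroblasts the values were 1852, 1933 and 2932 without and 636, 618 and 570.0 with TGFβ. The treated libraries of both sites lie in a narrow range far below the untreated ones. *Efemp1* was 3.77-fold lower with TGFβ in ascending fibroblasts (log2 -1.91, SE 0.027, adjusted p = 5.07e-18) and ranked 5 by adjusted p of 13917 genes. In descending fibroblasts it was 3.70-fold lower (log2 -1.89, SE 0.21, adjusted p = 0.00610), and 3.11-fold lower (log2 -1.64, adjusted p = 5.35e-22) without the descending control replicate 3, which had the highest level of the 12 libraries. With that replicate kept, the descending call was lost on leaving out any of the 3 descending TGFβ libraries (highest adjusted p = 0.0591). The control cells of the sites differed by 0.078 (adjusted p = 0.855), and by 0.33 with ascending higher (SE 0.029, adjusted p = 8.06e-07) without the descending control replicate 3. With TGFβ the sites differed by 0.050 (95% interval -0.031 to 0.13).

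*Fbln2* binds elastin and fibrillin. Its normalized CPM was 9401, 8929.6 and 8953 in ascending fibroblasts without TGFβ and 11382, 11385 and 11208 with it, and for descending fibroblasts 7521, 7319 and 3585 without and 9575, 10514 and 9989 with it. Within each site the treated libraries lie above the untreated ones. The rise in ascending fibroblasts was 1.24-fold (log2 0.31, SE 0.022, adjusted p = 3.30e-09, or 0.427 with the 12 libraries in one fit). In descending fibroblasts it was 0.70 (SE 0.28, adjusted p = 0.208), and 0.44 (SE 0.047, adjusted p = 3.29e-09) without the descending control replicate 3. Ascending fibroblasts were higher with TGFβ by 0.18 (SE 0.034, adjusted p = 9.57e-05, or 0.953 with the 12 libraries in one fit). In control cells the difference was 0.57 (adjusted p = 0.475), and 0.31 (adjusted p = 6.48e-07) without that library.

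*Fbln5*, a fibulin needed for elastic fibre assembly in the mouse, had 1419, 1425 and 1413 normalized CPM in the ascending controls, and 1824, 1746 and 1726 once treated. Descending controls had 1413, 1522 and 733, and treated descending cultures 1575, 1699.9 and 1639. In ascending fibroblasts it was 1.24-fold higher with TGFβ (log2 0.31, SE 0.027, adjusted p = 3.37e-08, or 0.404 with the 12 libraries in one fit). In descending fibroblasts the change was 0.42 (adjusted p = 0.415), or 0.16 (SE 0.048, adjusted p = 0.00591) without the descending control replicate 3. Between control sites it differed by 0.22 (adjusted p = 0.711), and by -0.035 (adjusted p = 0.477) without that library. With TGFβ it was higher in ascending fibroblasts by a small margin (0.11, SE 0.036, adjusted p = 0.0159). It lost that call without descending TGFβ replicate 1 or ascending TGFβ replicate 1 (highest adjusted p = 0.123), and with the 12 libraries in one fit.

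*Efemp2*, fibulin-4, recruits lysyl oxidase to tropoelastin. Ascending fibroblasts had 427, 412 and 422 normalized CPM without TGFβ and 427, 422 and 394 with it, and descending fibroblasts had 455, 463 and 228 without and 409, 422 and 396 with it. Apart from the value of 228, in the descending control replicate 3, the libraries lie between 394 and 463. The change with TGFβ in ascending fibroblasts was -0.026 (95% interval -0.096 to 0.046), and the difference between treated sites was 0.022 (95% interval -0.058 to 0.10). In descending fibroblasts the change with TGFβ was 0.094 (adjusted p = 0.870). It turned to -0.16 (SE 0.048, adjusted p = 0.00520) without the descending control replicate 3, and the difference between control sites turned from 0.15 (adjusted p = 0.805) to -0.11 (adjusted p = 0.0286).

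**Figure D2:**
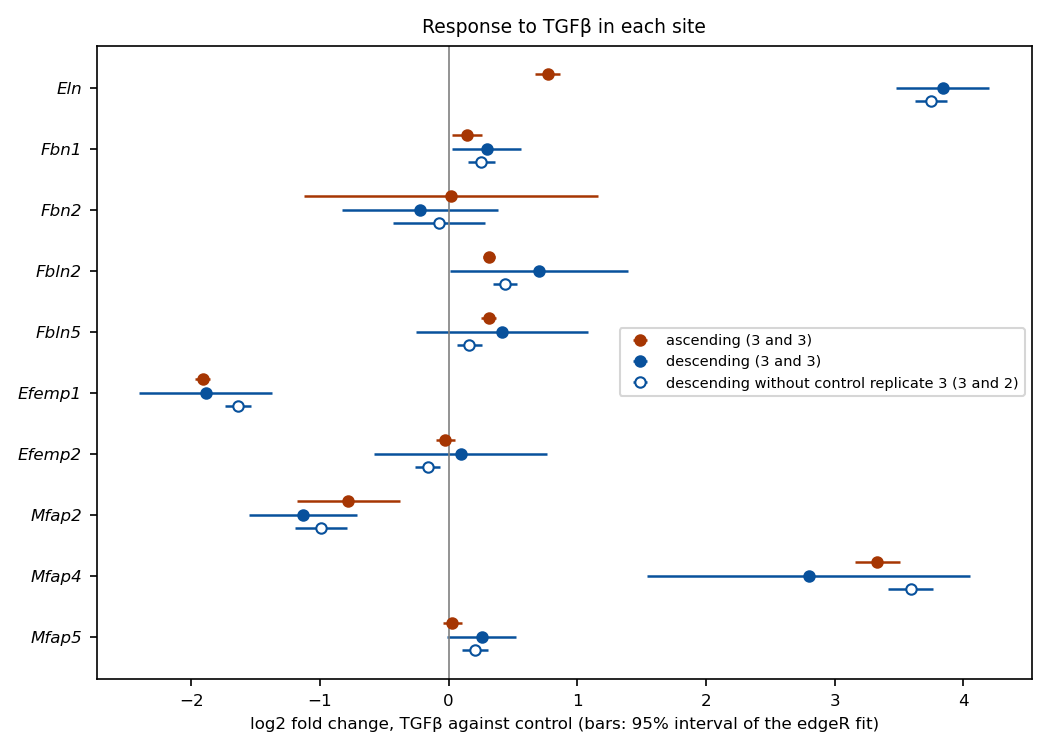
Log2 fold change of the 10 genes with TGFβ against control in ascending (brown) and descending (blue) fibroblasts, with open points for descending without the control replicate 3; bars are the 95% interval of the edgeR fit. *Eln* changed by 0.77 in ascending and 3.84 in descending fibroblasts, while *Mfap4* rose and *Efemp1* and *Mfap2* fell in both.

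The microfibril-associated genes each had their own pattern. *Mfap4*, a glycoprotein that binds tropoelastin and fibrillin, had the greatest fold rise of the 10 in ascending fibroblasts. It stood at 5.43, 7.10 and 7.50 normalized CPM there without TGFβ and at 69.8, 64.1 and 67.5 with it, a 10.1-fold rise (log2 3.33, SE 0.083, adjusted p = 4.27e-15). In descending fibroblasts the values were 7.47, 7.29 and 23.5 in control and 90.1, 92.8 and 83.9 with TGFβ. The rise there was 6.97-fold (log2 2.80, SE 0.51, adjusted p = 0.0281), and 12.1-fold (log2 3.59, SE 0.084, adjusted p = 1.17e-24) without the descending control replicate 3, whose level was above those of its mates. With that replicate kept, the call was lost on leaving out any of the other 5 libraries (highest adjusted p = 0.126). With TGFβ *Mfap4* was 1.32-fold lower in ascending than in descending fibroblasts (log2 -0.40, SE 0.049, adjusted p = 9.55e-08, or 0.823 with the 12 libraries in one fit). In control cells the site difference was -0.93 (adjusted p = 0.502), or -0.14 (95% interval -0.48 to 0.21) without that library.

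*Mfap2*, which encodes the microfibril glycoprotein MAGP-1, was higher in descending fibroblasts and lower with TGFβ. Descending controls had 24.1, 22.3 and 29.7 normalized CPM, and treated descending cultures 10.8, 12.4 and 11.7. The ascending values were 6.26, 7.75 and 5.46 without and 3.19, 4.78 and 3.36 with TGFβ. The 4 groups do not overlap. TGFβ lowered it 1.72-fold in ascending (log2 -0.78, SE 0.19, adjusted p = 0.00204) and 2.19-fold in descending fibroblasts (log2 -1.13, SE 0.17, adjusted p = 0.0155, or -0.99 with adjusted p = 7.40e-10 without the descending control replicate 3). Ascending fibroblasts were 3.89-fold lower in control (log2 -1.96, SE 0.21, adjusted p = 0.0109, or -1.83 with adjusted p = 6.78e-08 without that library) and 3.06-fold lower with TGFβ (log2 -1.61, SE 0.14, adjusted p = 2.25e-10). With the descending control replicate 3 kept, leaving out any of the other 5 libraries ended the call of *Mfap2* in descending fibroblasts (highest adjusted p = 0.118) and its call, and that of *Fbn2*, between control sites (highest adjusted p = 0.113 and 0.232).

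*Mfap5*, which encodes MAGP-2, varied little. The ascending cultures had 251, 258 and 264 normalized CPM without TGFβ and 274, 263 and 254 with it, and the descending ones 260.1, 266 and 231 without and 314, 302 and 292 with it. The change with TGFβ was 0.028 in ascending fibroblasts (95% interval -0.047 to 0.10). In descending fibroblasts it was 0.26 (adjusted p = 0.233), and 0.21 (SE 0.050, adjusted p = 0.000918) without the descending control replicate 3. Between control sites it differed by 0.036 (adjusted p = 0.871), and by -0.017 (adjusted p = 0.797) without that library. With TGFβ it was 1.15-fold lower in ascending fibroblasts (log2 -0.20, SE 0.040, adjusted p = 0.000216, or 0.187 with the 12 libraries in one fit).

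Counted over the list, 7 of the 10 genes passed with TGFβ in ascending fibroblasts, 5 higher and 2 lower, where 55.8% of all tested genes were called (28.2% higher and 27.6% lower), so the count is not far from that of any genes. In descending fibroblasts 4 passed, 2 higher (*Eln* and *Mfap4*) and 2 lower (*Efemp1* and *Mfap2*), where 8.07% of genes were called (3.59% higher and 4.48% lower). Without the descending control replicate 3 it was 9, 6 higher and 3 lower, against 52.9% of genes (26.6% higher and 26.3% lower), so the lower count with all libraries goes with a lower share of calls over all genes. *Eln*, *Mfap4*, *Efemp1* and *Mfap2* changed in the same direction in both sites with the 12 libraries. The median log2 fold change of the 10 was 0.086 in ascending and 0.28 in descending fibroblasts, against -0.0044 and 0.021 over all genes tested. Without the descending control replicate 3 the descending medians were 0.18 and -0.012.

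Between the sites, 3 of the 10 passed in control cells, *Eln* higher and *Fbn2* and *Mfap2* lower in ascending fibroblasts, where 2.65% of genes were called (1.19% higher and 1.47% lower). Without the descending control replicate 3, 6 passed, against 31.6% of genes, with *Fbln2* and *Efemp1* added to those higher and *Efemp2* to those lower. With TGFβ 8 passed, against 36.3% of genes (18.1% higher and 18.2% lower). *Eln*, *Fbln2* and *Fbln5* were higher in ascending fibroblasts, and *Fbn1*, *Fbn2*, *Mfap2*, *Mfap4* and *Mfap5* were lower. So *Eln*, *Fbn2* and *Mfap2* were called between sites with either treatment. With the replicate number as a block none of the 3 was called between control sites (adjusted p = 0.0720, 0.233 and 0.144), where 0 of 14090 genes were. The 2 site comparisons share no library with each other, and each shares libraries with the TGFβ comparisons.

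**Figure D3:**
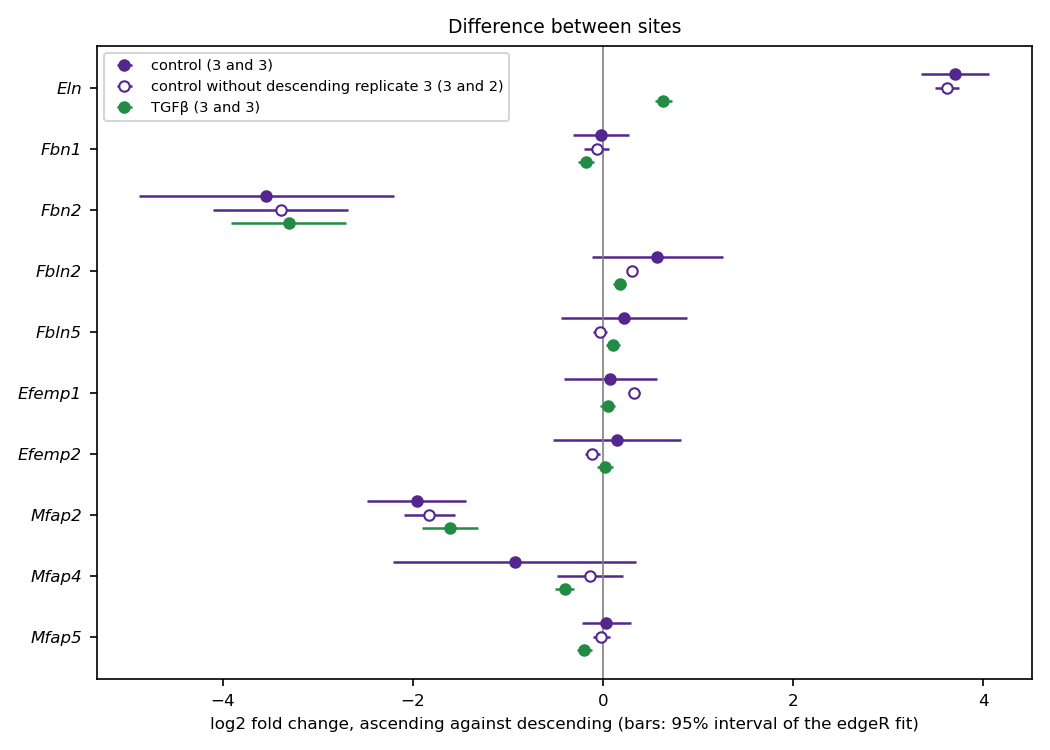
Log2 fold change of the 10 genes in ascending against descending fibroblasts, in control cells (purple, open points without the descending control replicate 3) and with TGFβ (green); bars are the 95% interval of the edgeR fit. *Eln* moves from 3.71 in control to 0.63 with TGFβ, while *Fbn2* (-3.54 and -3.31) and *Mfap2* (-1.96 and -1.61) stay lower in ascending fibroblasts.

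To compare the genes with each other, normalized CPM was divided by the length of the union of a gene's annotated exons in kb. On this scale *Fbln2* was highest in 3 groups, at 1428 ± 42 (SD, n = 3) in untreated and 1778 ± 16 in treated ascending fibroblasts and at 1574 ± 74 in treated descending ones. In descending control *Efemp1* (1099 ± 295) and *Fbln2* (964 ± 348) overlap. Without the replicate 3 of that group *Fbln2* was at 1165 ± 22 (n = 2) and *Efemp1* at 929 ± 28, so their order turns. *Fbn2* was last in every group, at 0.036 ± 0.021 in ascending and 0.42 ± 0.073 in descending control libraries. The order in ascending control was *Fbln2*, *Efemp1*, *Fbln5*, *Eln*, *Fbn1*, *Efemp2*, *Mfap5*, *Mfap2*, *Mfap4* and *Fbn2*, and no neighbours overlapped. In ascending TGFβ libraries *Eln* took place 2, with a range that overlaps that of *Efemp1*, and *Mfap4* passed *Mfap2*. In descending control the order was *Efemp1*, *Fbln2*, *Fbln5*, *Fbn1*, *Efemp2*, *Mfap5*, *Mfap2*, *Eln*, *Mfap4* and *Fbn2*, where *Efemp1* and *Fbln2*, *Fbln5* and *Fbn1*, and *Efemp2* and *Mfap5* overlapped. With TGFβ in descending fibroblasts the order was *Fbln2*, *Efemp1*, *Fbln5*, *Eln*, *Fbn1*, *Efemp2*, *Mfap5*, *Mfap4*, *Mfap2* and *Fbn2*, with no overlap of neighbours.

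**Figure D4:**
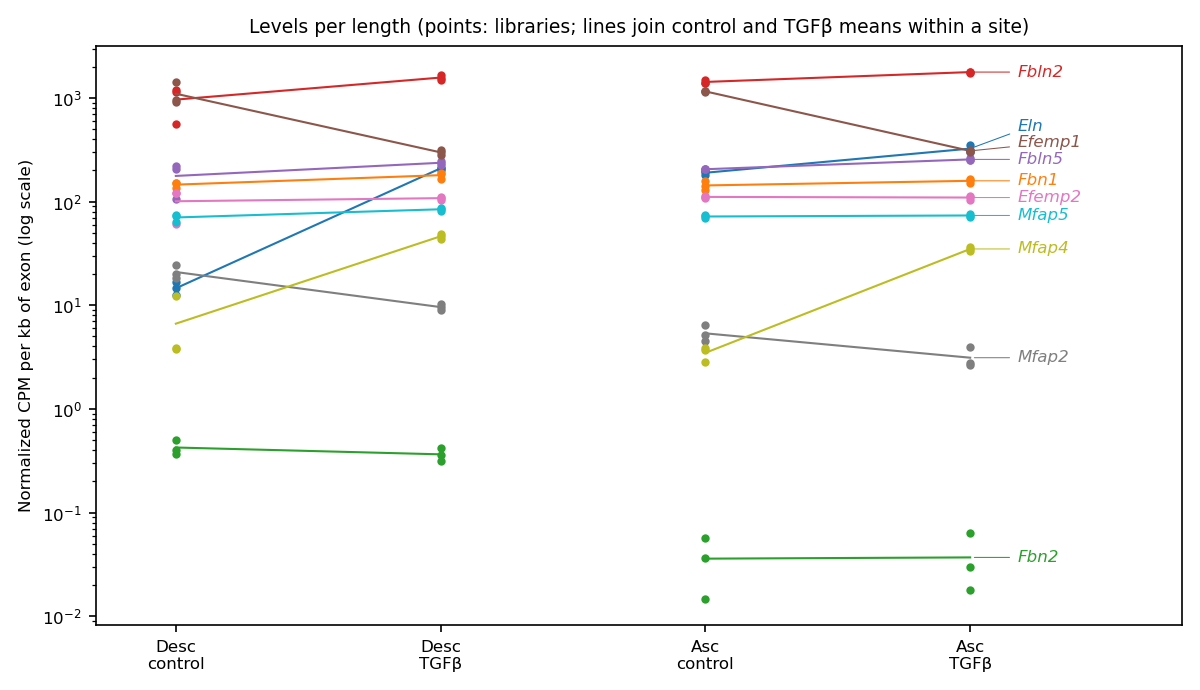
Normalized CPM per kb of exon (log axis) of the 10 genes in the 4 groups; points are libraries and lines join the control and TGFβ means of a site. *Eln* climbs from place 8 to place 4 in descending and from place 4 to place 2 in ascending fibroblasts, *Efemp1* drops in both, and *Fbn2* stays last.

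The balance between elastin and the microfibril backbone moved with both site and treatment. *Eln* over *Fbn1*, per length, was 0.0997 ± 0.0087 (SD, n = 3) in descending controls and 1.17 ± 0.10 once treated, and 1.33 ± 0.14 in ascending controls and 2.05 ± 0.19 once treated. The length used for *Eln* matters, since the union of its exons is 8.098 kb and its longest transcript 3.853 kb. With the longest transcripts as lengths the ratios were 0.207, 2.42, 2.77 and 4.25 in that order, which leaves the order of the groups as it was, and *Eln* took place 7, 2, 3 and 2 among the 10. As a share of the summed per-length level of the 10 genes, *Eln* was 0.559% ± 0.054 in descending control and 7.64% ± 0.44 with TGFβ, and 5.72% ± 0.20 and 10.7% ± 0.70 in ascending fibroblasts. The share of *Efemp1* moved the other way, from 34.9% ± 0.33 to 10.1% ± 0.058 in ascending and from 42.9% ± 14.5 to 10.9% ± 0.73 in descending fibroblasts. The share of *Fbln2* went from 43.1% ± 0.95 to 58.4% ± 0.81 and from 36.6% ± 11.6 to 57.3% ± 0.93. Per length, *Mfap4* over *Mfap2* went from 0.664 ± 0.18 to 11.6 ± 2.8 in ascending cultures and from 0.300 ± 0.17 to 4.83 ± 0.37 in the descending ones. Without the descending control replicate 3 (n = 2) the descending control values were 0.103 ± 0.0090 for *Eln* over *Fbn1* and 0.201 ± 0.0072 for *Mfap4* over *Mfap2*. The shares there were 0.580% ± 0.057 for *Eln*, 34.5% ± 0.84 for *Efemp1* and 43.3% ± 1.1 for *Fbln2*. These ratios are a description and carry no test.

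The other genes of the elastic fibre were followed with a list of 37, grouped by role. In ascending fibroblasts 19 of the 35 tested were higher with TGFβ and 13 lower, with a median log2 fold change of 0.34 against -0.0044 over all genes and the same 55.8% of genes called. Of the 6 genes of crosslinking and copper supply, 5 were higher and 1 lower, led by the lysyl oxidase family members *Loxl2* (1.96, SE 0.029, adjusted p = 9.79e-18) and *Loxl3* (2.03, SE 0.036, adjusted p = 6.59e-17). Among 15 microfibril and fibre associated genes 8 were higher and 6 lower. *Ltbp2*, a latent TGFβ binding protein that binds fibrillin, was higher (2.97, SE 0.033, adjusted p = 2.43e-19). *Adamtsl4*, a microfibril-binding ADAMTS-like protein, was lower (-1.27, SE 0.050, adjusted p = 1.28e-12), as was *Emilin2*, an elastin interface glycoprotein (-0.81, SE 0.045, adjusted p = 1.41e-10). The metalloproteinase inhibitor *Timp2* was lower as well (-1.19, SE 0.024, adjusted p = 2.94e-16). Elastin degrading proteases had 4 higher and 2 lower of 7, protease inhibitors 2 and 2 of 4, and the elastin receptor complex 0 and 2 of 3. The 2 lower proteases were *Mmp12*, macrophage elastase (-3.58, adjusted p = 0.00116), and *Ctss*, cathepsin S, both named after their values were seen. Of the 774 *Mmp12* and 676 *Ctss* counts of the ascending controls, 648 and 562 were in replicate 2, the library with the highest macrophage marker sum. Without it, an alternative chosen after seeing the data, *Mmp12* was at -1.45 (adjusted p = 0.000212), *Ctss* lost its call (-0.019, adjusted p = 0.957), and 20 genes of the list were higher and 12 lower, where 52.3% of all genes were called (26.5% higher and 25.8% lower).

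In descending fibroblasts 10 of 34 were higher and 2 lower with TGFβ, against 8.07% of all genes, and 19 and 11 without the descending control replicate 3, against 52.9%. *Loxl2* (2.24, SE 0.15, adjusted p = 0.00156, or 2.39 without that library), *Timp1* (1.12, SE 0.11, adjusted p = 0.00397, or 1.17) and *Loxl3* (1.59, SE 0.16, adjusted p = 0.00406, or 1.47) led those higher. *Timp2* (-0.85, adjusted p = 0.0108, or -0.92) and *Fbln1*, a fibulin of the blood vessel wall (-0.88, adjusted p = 0.0163, or -0.92), were the ones lower. Between control sites, *Timp1* was higher (0.67, adjusted p = 0.0328, or 0.72) and *Emilin2* lower (-1.10, adjusted p = 0.0331, or -1.25) in ascending fibroblasts, 2 of 33 tested against 2.65% of all genes, and without that library 16 were higher and 11 lower, against 31.6%. With TGFβ 13 of 34 were higher and 13 lower in ascending fibroblasts, where 18.1% and 18.2% of all genes were. They were led by *Mmp2*, a gelatinase (1.16, SE 0.037, adjusted p = 1.98e-20), and *Cst3*, a cathepsin inhibitor (0.78), against *Emilin2* (-1.43, SE 0.045, adjusted p = 1.23e-20), *Ltbp2* (-0.79) and *Timp3* (-0.68). None of the 35 passed the interaction with the 12 libraries, against 0.806% of all genes, and without the descending control replicate 3 7 were positive and 9 negative, against 13.5%.

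*Lox*, the main lysyl oxidase, was looked at after its values were seen, since it crosslinks elastin. Ascending fibroblasts had 4549, 4577 and 4625 normalized CPM without TGFβ and 9528, 9455 and 9475 with it, and descending fibroblasts had 5106, 5421 and 8718 without and 11254, 11814 and 11212 with it. TGFβ raised it by 1.04 (SE 0.020, adjusted p = 1.61e-16) in ascending fibroblasts. In descending fibroblasts the change was 0.82 (adjusted p = 0.0879), or 1.12 (adjusted p = 1.45e-18) without the descending control replicate 3. Per length, *Lox* over *Eln* was 5.06 ± 0.25 and 6.14 ± 0.46 in ascending control and TGFβ libraries and 96.0 ± 43.7 and 11.4 ± 0.67 in descending ones (71.1 ± 9.6, n = 2, in descending control without replicate 3). Between control sites *Lox* differed by -0.48 (adjusted p = 0.456), and was lower in ascending fibroblasts by -0.19 (adjusted p = 0.000117) without that library, whereas *Eln* was higher in ascending fibroblasts.

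**Figure D5:**
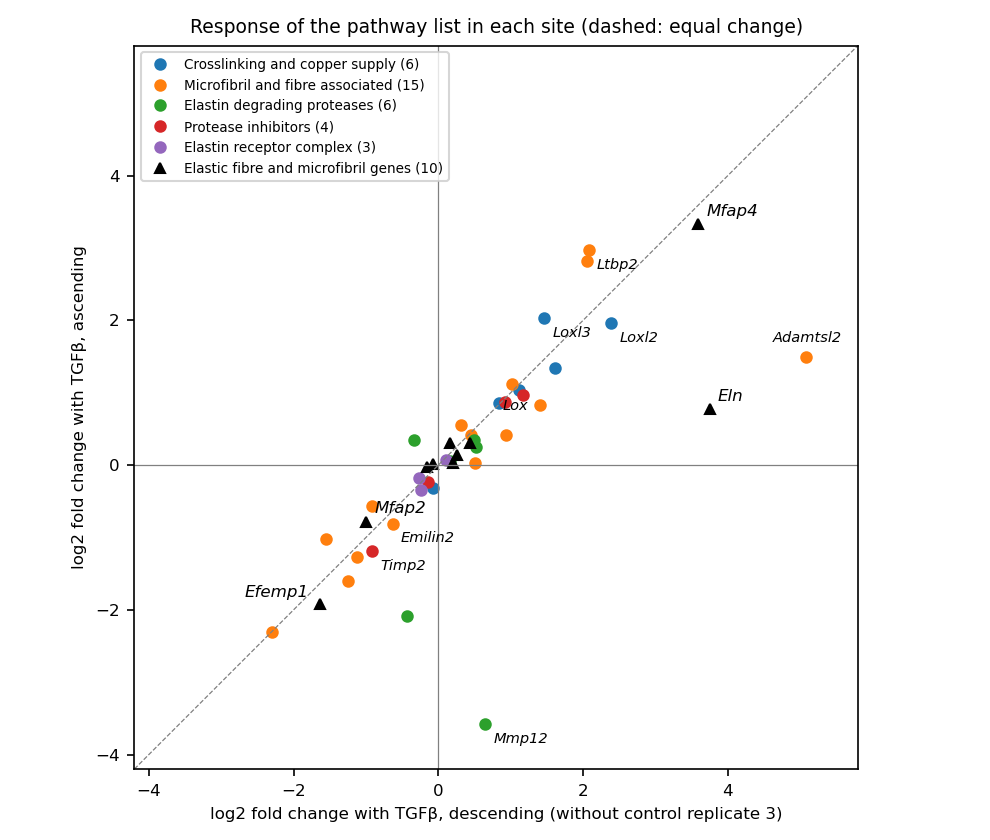
Log2 fold change with TGFβ in ascending (y) against descending (x, without the control replicate 3) fibroblasts for 34 genes of the elastic fibre list, coloured by role with their number, and the 10 elastic fibre and microfibril genes (triangles). The dashed line marks an equal change. Of the 10 *Eln*, at 3.75 in descending and 0.77 in ascending fibroblasts, lies farthest from it, and of the list *Mmp12* and *Adamtsl2* lie farther, though not without ascending control replicate 2, where they are at -1.45 and 3.61 in ascending fibroblasts. *Adamtsl2* had 3 counts over the descending controls, and 48 of its 57 ascending control counts were in that replicate. *Mmp9*, not tested in descending fibroblasts (8 counts over the controls and 10 with TGFβ), is not plotted. Its edgeR interaction was 4.57 (adjusted p = 0.357), or 4.97 (adjusted p = 0.00851) without the descending control replicate 3.

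Markers of smooth muscle, the main elastin-producing cell of the aortic media, moved with the treatment and the site. In bulk samples fewer cells of a type and less RNA per cell cannot be told apart. Of 8 smooth muscle markers, 7 were over the floor in every library of both control groups and 8 in both TGFβ groups, and none was at 0 in every library of a group. Their summed level in ascending fibroblasts was 1497 to 1614 normalized CPM without and 5032 to 5138 with TGFβ, and in descending fibroblasts 2415 to 2463 without and 7920.1 to 8351 with it. Most of that sum was *Acta2*, an actin that activated fibroblasts make too, at 1425 to 1543 in ascending control and 7602 to 8049 in descending TGFβ libraries. Of the defining markers, *Myh11* was at 23.4, 25.5 and 23.2 in ascending fibroblasts without TGFβ and 17.7, 16.8 and 12.5 with it. In descending fibroblasts it was at 43.6, 44.5 and 83.8 without and 67.3, 81.2 and 75.6 with TGFβ. *Myocd* had 0 to 15 counts in each library. The mean of *Cnn1* went from 11.2 to 43.3 with TGFβ in ascending and from 26.5 to 101 in descending fibroblasts, that of *Synpo2* from 12.2 to 33.1 and from 15.9 to 79.3, that of *Tagln* from 7.19 to 20.5 and from 7.69 to 19.7, and that of *Actg2* from 15.7 to 23.4 and from 13.2 to 34.3. The mean of *Des* went from 2.99 to 1.18 and from 1.76 to 0.665. The part of smooth muscle cells in these results was not tested.

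The fibroblast markers did not move as one. The mean normalized CPM of *Col1a1* went from 5510 to 10849 with TGFβ in ascending and from 6268 to 13639 in descending fibroblasts, while that of *Pdgfra* went from 184 to 55.2 and from 372 to 84.8. For *Cd34* it went from 489 to 131 and from 63.5 to 6.89, and for *Dcn* from 197 to 85.4 and from 168 to 38.1 (115 in descending control without replicate 3). Of 7 endothelial markers, *Pecam1* and *Cdh5* were at 0 to 0.300 normalized CPM and *Tie1* at 0 in every library. *Tek* had means of 24.3 and 24.2 in ascending and descending controls and 4.13 and 8.56 with TGFβ, and *Kdr* had 0.700 and 0.487 in controls (0.730 in descending without replicate 3) and 0.725 and 1.47 with TGFβ. The sum of 5 mesothelial markers was 32.9 to 42.7 in ascending control, 19.6 to 26.5 in ascending TGFβ, 6.90 to 13.1 in descending control and 12.3 to 13.9 in descending TGFβ libraries. Most of it was *Upk3b* in ascending control (mean 33.7, against 0.860 in descending control) and *Krt19* in descending control (10.02, against 3.71 in ascending control), while *Wt1* and *Krt8* were at 0 in the control libraries. That of 3 adipocyte markers was 0.913 to 4.95, 0.0473 to 0.575, 22.2 to 28.6 and 9.74 to 18.3 in the same order. That of 4 Schwann cell markers was 21.4 to 25.9, 14.9 to 15.7, 14.8 to 24.8 and 10.8 to 12.1, with *Sox10* at 0 in every descending library. That of 3 cardiomyocyte markers was 5.85 to 7.75, 3.36 to 3.75, 0.156 to 1.03 and 1.08 to 1.47, nearly all of it *Tnnt2*, with *Myh6* at 0 in every library. Of 7 macrophage markers, whose sum was 15.3 to 50.4 in descending and 30.6 to 43.5 in ascending TGFβ libraries, the sum was 56.5 to 359 in ascending control, with the highest value in replicate 2. *Eln*, *Fbn1*, *Fbn2*, *Fbln5*, *Efemp1* and *Mfap2* were also highest of that group in replicate 2, and *Fbln2*, *Efemp2*, *Mfap4* and *Mfap5* were not. The part of these cell types in the results was not tested either.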

How the data were processed

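RNA of 12 cultures was sequenced. Per the labels and the study's methods, the authors mapped read pairs to mm10 with STAR and used featureCounts, and the table they deposited holds unnormalized counts of reads for each gene symbol in each library. Tool versions, the strand setting and the treatment of reads matching several genes are not given in the sources used here. The values were whole numbers summing to 16250126 to 23892943 per library, and 22 symbols were numbers in place of a name and were kept as deposited.

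The members and the gene lists were chosen with earlier results of these data known. All 10 members are named, and of the other elastic fibre genes up to 3 called genes in each direction of a comparison, those of smallest adjusted p. Tests were run in R 4.3.3 by edgeR 4.0.16 (quasi-likelihood F-test, TMM, filterByExpr at its minimum count, 10, and minimum total, 15) on the groups compared, with Benjamini-Hochberg adjustment and a threshold of 0.05. The comparisons were TGFβ against control in each site, ascending against descending with each treatment, and their interaction. Standard errors were taken from the fold change and its F statistic (log2 fold change over the root of F). Normalized CPM used TMM factors over the 14637 genes of the filter for 12 libraries, and per-length levels used the union of GENCODE vM21 exons. Patterns were compared on the log2 CPM scale (prior count 2). A count of 3 was the floor of a library. Floors and intervals on counts cover counting error only, because reads were not marked by molecule.

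The alternatives were DESeq2 1.42.0 (Wald test), its size factors in edgeR, no filter, at least 10 counts in every library, the replicate number as a block, 12 libraries in one fit, limma 3.58.1 (voom with sample quality weights) and each library left out in turn. On simulated data with 200 changed genes and a biological coefficient of variation of 5%, edgeR recovered at least 70.1% of 1.5-fold, 79.1% of 2-fold and 90.9% of 4-fold changes, with at most 4.89% false calls. This does not describe the fits with the descending control replicate 3, whose median SE was 0.307 to 0.352, against 0.0800 to 0.137 in the fits without it. No library pair of a group was near identical. Figures were drawn in Python 3.11.15 with matplotlib 3.10.9. One gene of the treatment check is not reported here.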

Additional observations from a re-analysis of the deposited data

Results flagged for a closer look

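The response of *Eln* to TGFβ differed between the sites by a test of the difference itself. The interaction was -3.07 on the log2 scale (edgeR, adjusted p = 1.42e-05), where the mean level in descending fibroblasts was 118 normalized CPM without and 1697 with TGFβ, and in ascending fibroblasts 1537 and 2631. The rise was seen in 3 of 3 treated libraries of each site. None of the other 9 genes met this with the 12 libraries.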

How the results depend on the processing

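The number of the 10 genes called moved with the fit. With the 12 libraries in one fit it was 4 instead of 7 for TGFβ in ascending, 7 instead of 4 in descending fibroblasts and 3 instead of 8 between sites with TGFβ. Over all genes that fit called 2338, 3570 and 1106 of 14637, instead of 7767 of 13917, 1115 of 13825 and 4963 of 13678. The calls lost there were *Fbln2*, *Fbln5* and *Fbn1* (adjusted p = 0.427, 0.404 and 0.393) for TGFβ in ascending fibroblasts, and *Fbln2*, *Fbln5*, *Fbn1*, *Mfap4* and *Mfap5* (0.953, 0.999997, 0.441, 0.823 and 0.187) between sites with TGFβ. With limma's voom and sample quality weights it was 9 for TGFβ in descending fibroblasts, 5 instead of 3 between control sites and 3 instead of 1 for the interaction. Voom called 7335 of 13825, 4392 of 14090 and 1979 of 14637 genes there. Leaving out each library gave 6 to 7, 1 to 9, 1 to 6, 7 to 8 and 1 to 3 in the order TGFβ in ascending, TGFβ in descending, sites in control, sites with TGFβ and interaction, with the highest of the descending, control-site and interaction counts without the descending control replicate 3. Over all genes the counts were 7146 to 7427, 213 to 7576, 33 to 4631, 4340 to 4656 and 25 to 2022 in that order. The deviations of same-numbered libraries had correlations of -0.026 to 0.065, with 0.061, 0.031 and 0.065 between control sites. Values this small cannot settle whether the numbers pair the libraries. With a replicate block 1 gene was called for TGFβ in descending fibroblasts and 0 between control sites, where 95 of 13825 and 0 of 14090 genes were called over all genes. Over all genes, the count for TGFβ in ascending fibroblasts was 7767, and 2338 in one fit. In descending fibroblasts it was 1115, and 2242 with DESeq2, 95 with the replicate block, 3570 in one fit, 7335 with voom and 213 to 7576 with a library left out. Between control sites it was 374, and 1034, 0, 1545, 4392 and 33 to 4631 in the same order. At the 0 of the block fit, the unadjusted edgeR test without it had 1805 genes with p under 0.05. Between sites with TGFβ it was 4963, and 1106 in one fit. For the interaction it was 118, and 419 with DESeq2, 56 without the filter, 50 with the block, 1979 with voom and 25 to 2022 with a library left out.

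Of 336 values of single genes under the alternatives other than leaving out a library, 304 kept their direction and side of the threshold, 15 lost and 10 gained the call, and 7 changed sign, all with voom. These were *Efemp2* with TGFβ in descending fibroblasts (-0.17), *Fbln5* (-0.043), *Efemp2* (-0.11) and *Mfap5* (-0.021) between control sites, and *Fbln5* (0.16), *Efemp2* (0.14) and *Mfap4* (-0.24) in the interaction. Of 360 values with a library left out 301 kept both. Those that changed sign were *Fbn2* (-0.59 to 0.47) and *Efemp2* (-0.045 to 0.013) for TGFβ in ascending fibroblasts, *Efemp2* (-0.16 to 0.26) for TGFβ in descending fibroblasts, and *Efemp2* (-0.0033 to 0.058) between sites with TGFβ. Between control sites they were *Fbn1* (-0.096 to 0.054), *Efemp1* (-0.040 to 0.33), *Fbln5* (-0.035 to 0.41), *Efemp2* (-0.11 to 0.31) and *Mfap5* (-0.017 to 0.076). In the interaction they were *Efemp1* (-0.27 to 0.093), *Fbln5* (-0.29 to 0.15), *Efemp2* (-0.28 to 0.14), *Mfap4* (-0.26 to 0.79) and *Fbn2* (-0.38 to 0.71). *Eln* kept its call with TGFβ and in the interaction under each of these settings, and lost it between control sites with the replicate block (adjusted p = 0.0720), as did *Mfap2* (0.144) and *Fbn2* (0.233). With the longest transcript as length, 6 of the 10 genes kept their place in ascending control and 6 in descending control. The cause of these shifts was not tested.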
